A study of Homo sapiens with 29 samples.

Results

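Broad INO80 domains that lack YY1 are stretches of the HepG2 genome where the chromatin remodeller INO80 was called over 2000 bp or more and where the YY1 peak list of the same line has no peak. They number 342 of 23665 INO80 peaks in HepG2. Members were chosen by those values alone, the width of the INO80 peak and the absence of any overlap with a HepG2 YY1 peak, so neither is a result. They are set against the 2185 INO80 peaks of 2000 bp or more that overlap a YY1 peak, called broad peaks with YY1, and against the 6675 INO80 peaks under 2000 bp that overlap none, called narrow peaks without YY1. A peak counted as overlapping when it shared at least 1 bp.

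Chromatin immunoprecipitation with sequencing was used on untreated HepG2 and Huh7 cells, both lines derived from liver cancer and grown in culture. Fixation was for 30 min with formaldehyde at 0.3%. Of 29 libraries in 14 groups, those behind the lists used here are 3 of INO80 in HepG2 and 2 each of INO80 in Huh7, of MCRS1 and RUVBL2 in both lines, of RUVBL1 in HepG2 and of YY1 in Huh7. Of the 3 HepG2 INO80 libraries 2 were made with the same antibody lot and 1 with another. YY1 in HepG2 comes from public ENCODE reads put through the same steps, with no sample record. Each factor and line has 1 list of peak positions without heights, so there is no spread between libraries to set a difference against and no test over samples. Shares carry 95% Wilson intervals and differences of shares 95% Newcombe intervals, which cover counting of peaks only. Depth per library is unknown from these lists, and the lists hold between 3322 peaks (RUVBL2 in Huh7) and 39293 peaks (YY1 in HepG2).

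INO80 is the ATPase of a complex that slides nucleosomes and acts at gene starts, at replication forks and in DNA repair. MCRS1 is a subunit of this complex that also belongs to the NSL acetyltransferase complex. RUVBL1 and RUVBL2 are paired ATPases that the INO80, SRCAP and TIP60 complexes share. YY1 is a zinc finger protein that binds DNA at its own motif, takes part in the INO80 complex and is best known at starts of active genes. CpG islands are stretches rich in the CpG dinucleotide that cover many gene starts, among them those of developmental transcription factors that most adult cells keep silent.

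The sequences that follow show what lies under these domains. The first 5 are from the 5 widest members named by a coding gene start. Each is the 300 bp stretch outside any annotated exon that held the most CpG, with every CpG in capitals, on the plus strand of hg19. They lie at chr2:119605343-119605642, chr15:68115552-68115851, chr18:77156360-77156659, chr20:21491293-21491592 and chr1:180198778-180199077. They hold 34, 49, 47, 37 and 44 CpG in that order. The stretch in APOB, at chr2:21237645-21237944 in an intron, belongs to another kind of member described below. It is the exon-free 300 bp nearest the centre of the widest member with RUVBL1. It was chosen after its values were seen, and it holds 0 CpG. It lies between the RUVBL1, RUVBL2 and MCRS1 peaks of that member and under none of them. The first 5 were picked for their CpG and this one was not, so the contrast is an illustration and the values over all members follow.
EN1: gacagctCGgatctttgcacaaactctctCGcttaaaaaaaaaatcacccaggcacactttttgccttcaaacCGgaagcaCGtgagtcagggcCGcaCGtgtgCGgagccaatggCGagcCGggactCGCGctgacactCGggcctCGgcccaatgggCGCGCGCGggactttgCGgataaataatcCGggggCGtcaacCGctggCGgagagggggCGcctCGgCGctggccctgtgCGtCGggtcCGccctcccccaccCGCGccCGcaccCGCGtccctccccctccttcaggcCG
SKOR1: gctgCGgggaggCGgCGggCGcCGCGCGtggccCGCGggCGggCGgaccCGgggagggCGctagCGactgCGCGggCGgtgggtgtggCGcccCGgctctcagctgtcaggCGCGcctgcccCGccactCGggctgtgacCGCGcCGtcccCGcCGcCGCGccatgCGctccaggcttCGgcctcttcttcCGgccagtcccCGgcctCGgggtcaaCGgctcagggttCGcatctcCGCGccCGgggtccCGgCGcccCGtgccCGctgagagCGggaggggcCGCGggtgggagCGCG
NFATC1: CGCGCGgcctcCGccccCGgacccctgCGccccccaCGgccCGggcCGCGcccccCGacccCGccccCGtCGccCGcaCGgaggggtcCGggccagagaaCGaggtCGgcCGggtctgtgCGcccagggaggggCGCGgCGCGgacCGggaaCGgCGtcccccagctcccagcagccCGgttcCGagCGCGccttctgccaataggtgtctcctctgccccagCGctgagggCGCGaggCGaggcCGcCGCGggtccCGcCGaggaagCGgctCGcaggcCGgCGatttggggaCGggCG
NKX2-2: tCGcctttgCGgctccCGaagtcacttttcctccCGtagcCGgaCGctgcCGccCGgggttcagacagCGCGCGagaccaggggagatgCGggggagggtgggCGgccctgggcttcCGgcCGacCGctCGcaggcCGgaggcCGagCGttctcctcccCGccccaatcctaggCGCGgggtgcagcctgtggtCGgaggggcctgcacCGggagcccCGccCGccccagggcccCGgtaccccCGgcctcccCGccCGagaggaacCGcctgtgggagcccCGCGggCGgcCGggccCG
LHX4: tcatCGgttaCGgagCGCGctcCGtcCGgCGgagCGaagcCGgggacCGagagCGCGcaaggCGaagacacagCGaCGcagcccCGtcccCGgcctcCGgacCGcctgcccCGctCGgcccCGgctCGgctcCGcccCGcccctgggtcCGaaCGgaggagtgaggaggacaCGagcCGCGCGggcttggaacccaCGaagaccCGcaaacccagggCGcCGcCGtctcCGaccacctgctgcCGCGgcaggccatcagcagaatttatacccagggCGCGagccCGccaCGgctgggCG
APOB intron: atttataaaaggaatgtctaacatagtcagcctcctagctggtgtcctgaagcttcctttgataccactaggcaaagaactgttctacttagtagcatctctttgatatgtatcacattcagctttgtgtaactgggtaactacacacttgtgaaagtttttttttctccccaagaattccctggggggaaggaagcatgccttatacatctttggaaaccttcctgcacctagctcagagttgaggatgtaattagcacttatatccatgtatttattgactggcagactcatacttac

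The members ranged from 2001 to 8686 bp with a median of 2562 bp and covered 0.961 Mb, against a range of 2000 to 15541 bp and a median of 2644 bp for broad peaks with YY1. Just inside the limit lay the starts of ATP10A at 2004 bp and of DEGS2 and SLCO3A1 at 2001 bp each. Just outside, among peaks without YY1, lay those of CBR3 at 1997 bp, KCNMA1 at 1996 bp and HOXA7 at 1994 bp. Members made up 13.5% of all peaks of 2000 bp or more and 7.2% of those of 4000 bp or more. At 7000 bp and over there were 7 members and 49 peaks with YY1.

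The widest member lay over EN1, a homeobox regulator of hindbrain and limb patterning, at chr2:119602373-119611058 (8686 bp). Next came SKOR1, a corepressor of neurons, with 7624 bp at chr15:68113139-68120762. NFATC1, a calcium-regulated transcription factor of T cells and heart valves, followed with 7524 bp at chr18:77153118-77160641. NKX2-2, a homeobox gene of the ventral neural tube and pancreas, lay under 7297 bp at chr20:21488094-21495390, and 1891 bp farther along a further member of 7173 bp began, beside the start of the uncharacterised gene ENSG00000289431. LHX4, a LIM homeobox gene of the pituitary, had 7258 bp at chr1:180197794-180205051. The other members among the 12 widest were PDGFA (7005 bp), which encodes a platelet-derived growth factor chain, MN1 (5893 bp), UNCX (5776 bp), a stretch inside PTPRN2 (5505 bp), ELFN1 (5301 bp) and SOX8 (4951 bp). In contrast, the 3 widest peaks with YY1 lay over ALB, the albumin gene (15541 bp), RHOF and SETD1B (14809 bp) and IRF2BP2 (14721 bp).

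**Figure D1:**
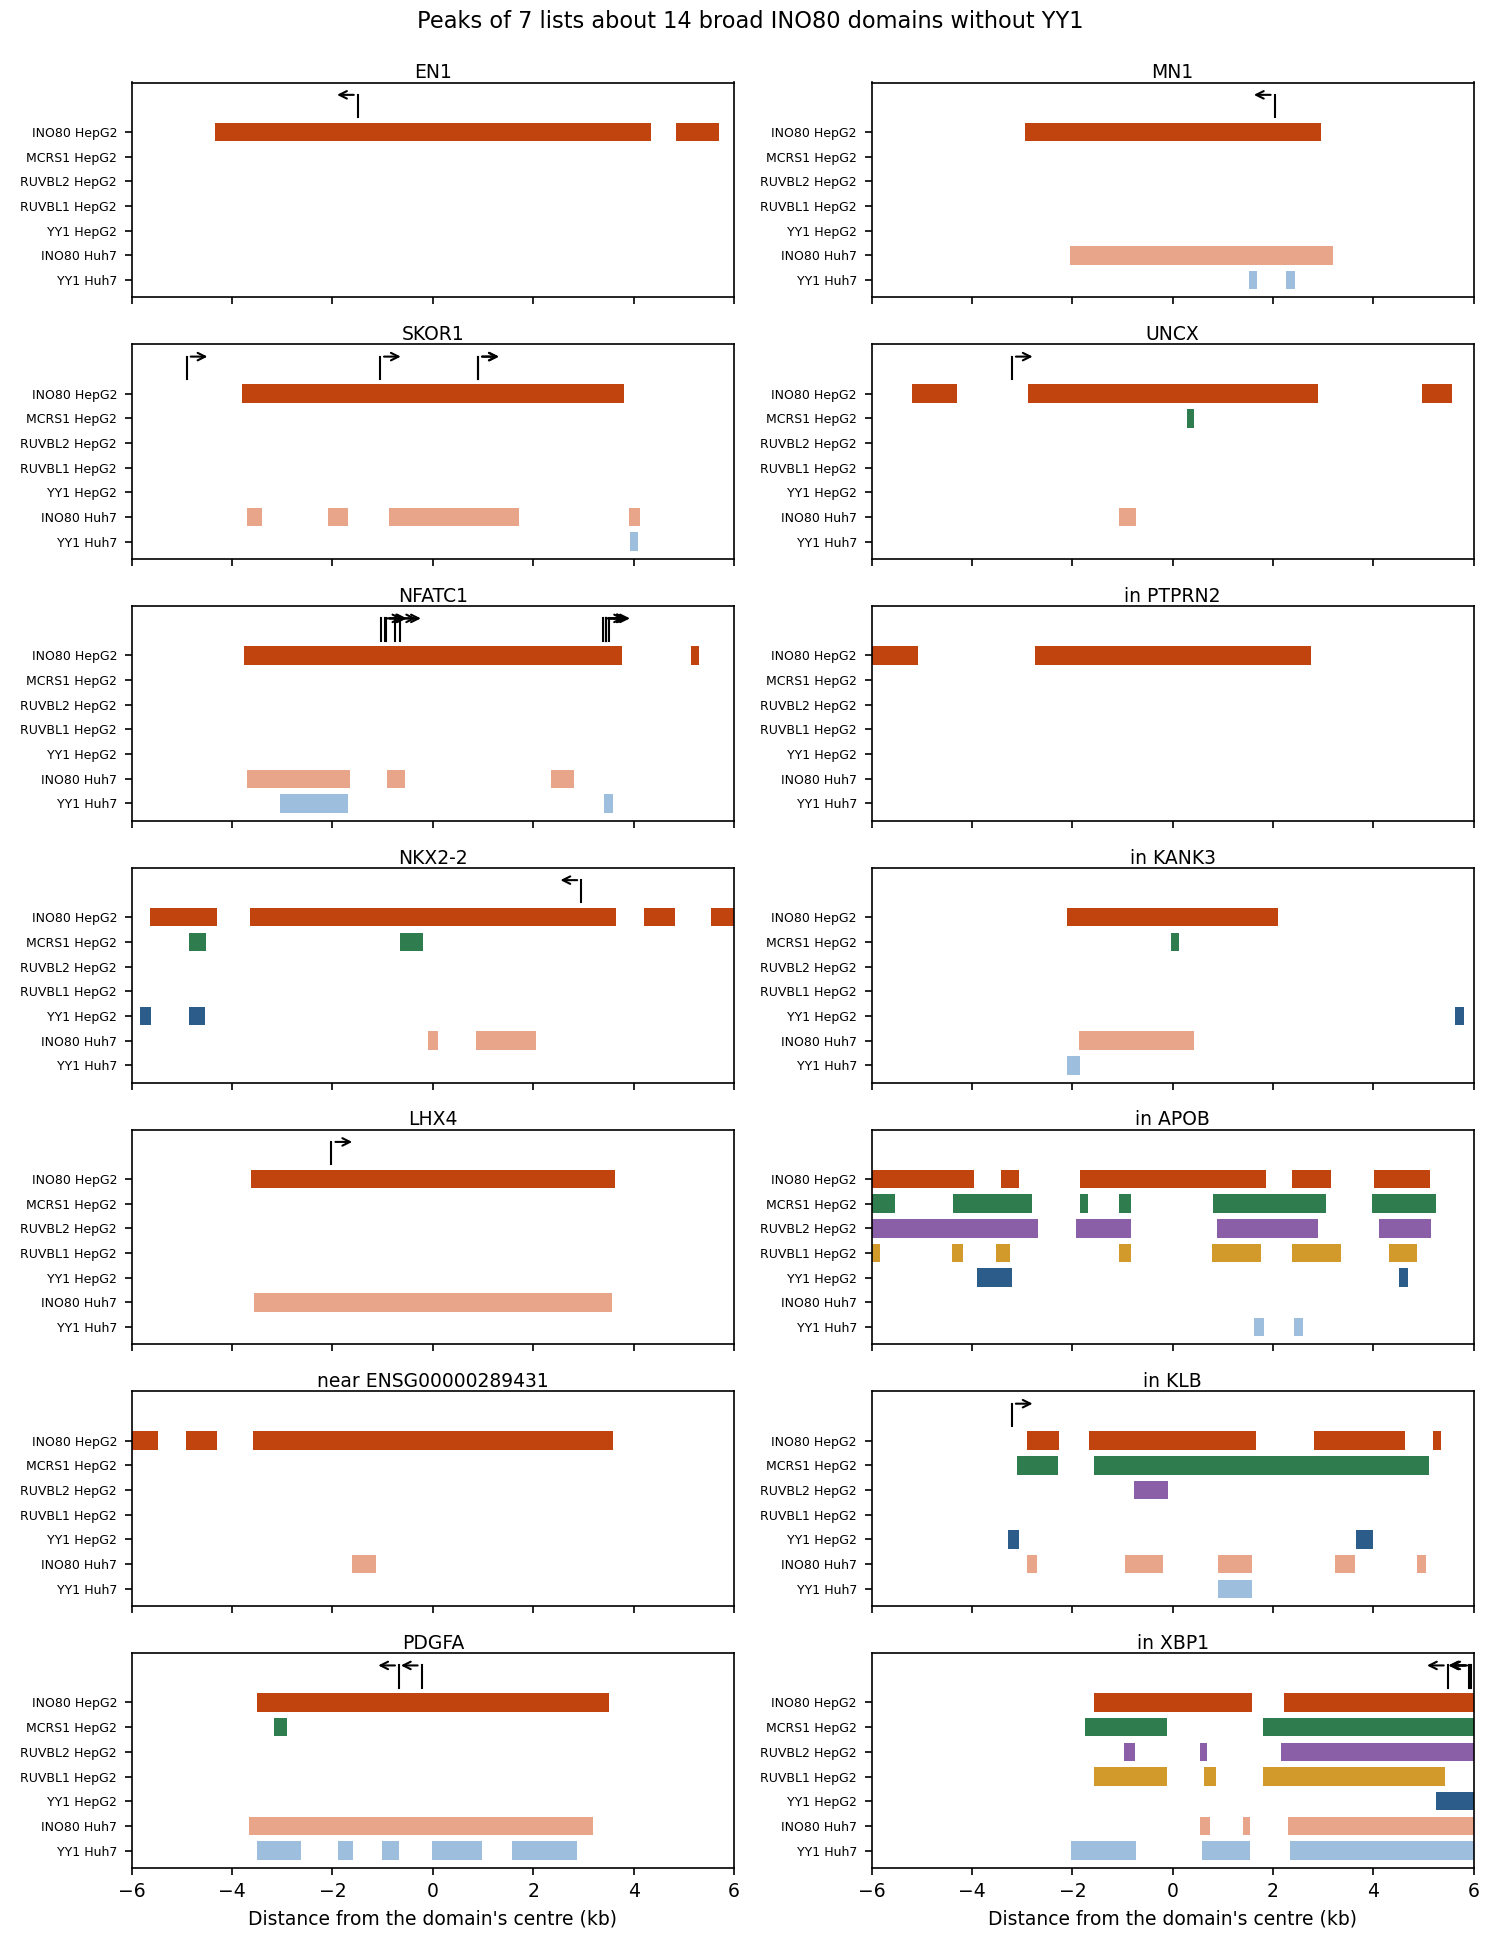
Peaks of INO80, MCRS1, RUVBL2, RUVBL1 and YY1 in HepG2 and of INO80 and YY1 in Huh7 (bars, 1 row per list) around the 10 widest members and the 4 widest members that lie inside a coding gene away from its start and hold another HepG2 factor; the x axis is the distance from the domain's centre in kb and black arrows are starts of protein-coding transcripts. In HepG2 the 10 widest members show INO80 with at most short MCRS1 peaks inside, and PDGFA shows 3779 bp of YY1 in Huh7; the 4 others, chosen for another factor, show MCRS1 with RUVBL2 in APOB, KLB and XBP1 and a short MCRS1 peak in KANK3.

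Few members carried another factor of the complex in HepG2. MCRS1 overlapped 71 members, 20.8% (95% interval 16.8 to 25.4), against 95.7% of broad peaks with YY1 and 26.2% of narrow peaks without YY1, where 70.4% of all HepG2 INO80 peaks overlapped MCRS1. The difference, members minus broad peaks with YY1, was -75 percentage points (-79 to -70.3). RUVBL2 overlapped 7.6% of members (5.24 to 10.9), against 84.2% of broad peaks with YY1 and 41.1% of all INO80 peaks, a difference of -76.6 points (-79.4 to -72.9). RUVBL1 overlapped 3.22% of members (1.81 to 5.67), against 51.7% of broad peaks with YY1 and 18.8% of all INO80 peaks, a difference of -48.5 points (-51 to -45.3). A total of 267 members (78.1%) held none of the 3, 47 held MCRS1 alone, 13 held MCRS1 with RUVBL2 and 9 held all 3. The remaining 6 were 4 with RUVBL2 alone and 2 with MCRS1 and RUVBL1. By these overlaps the members stood close to narrow peaks without YY1: the differences from those were -1.63 points (-4.09 to 1.74) for RUVBL2 and -0.379 points (-1.87 to 2.11) for RUVBL1, and for MCRS1 -5.47 points (-9.58 to -0.744). The low shares were thus seen in INO80 peaks without YY1 of either width. Members and narrow peaks differ in width, with medians of 2562 and 251 bp, and a wider peak has more room for a 1 bp overlap. Similar shares are therefore not similar rates per base, and the part of width was not tested.

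Where MCRS1 did overlap a member it covered little of it. The median share of the domain covered was 13.2% (quartiles 9.15 and 30.9) in the 71 members, against 87.8% (70.4 and 98.9) in the 2092 broad peaks with YY1 that had MCRS1. The widest MCRS1 peak in such a member had a median width of 339 bp, against 2402 bp in broad peaks with YY1. The 4 widest members with MCRS1 showed this: it covered 474 bp of 7297 bp at NKX2-2, 274 bp of 7005 bp at PDGFA, 154 bp of 5776 bp at UNCX and 147 bp of 4951 bp at SOX8. RUVBL2 likewise covered 196 bp of the 4726 bp at FOXF1 and 171 bp of the 3400 bp at NOTCH1, which are among the 4 widest members with either RUVBL factor. The others of those 4 were a stretch in APOB, with 1984 bp of RUVBL2 and 1198 bp of RUVBL1 in 3705 bp, and LRRC26, with 153 bp of RUVBL2 in 3605 bp.

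**Figure D2:**
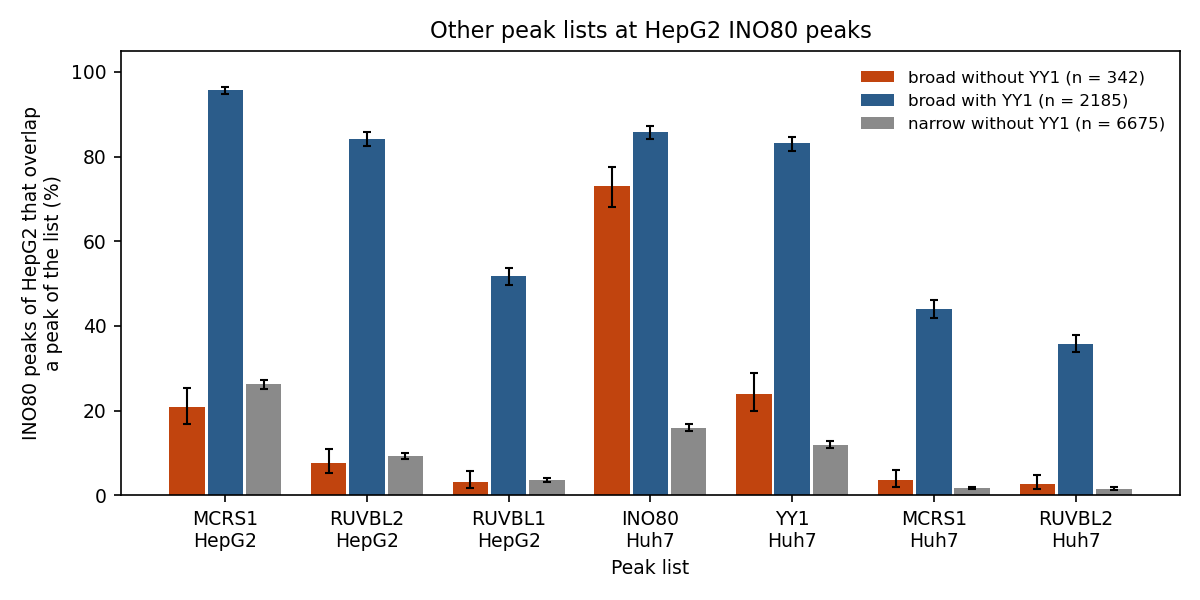
Share of HepG2 INO80 peaks (y axis, percent) that overlap a peak of each other list (x axis), for members (left, red), broad peaks with YY1 (middle, blue) and narrow peaks without YY1 (right, grey); bars are shares and whiskers 95% Wilson intervals. Members stand at 20.8% for MCRS1 in HepG2 and at 73.1% for INO80 in Huh7.

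INO80 itself was called at most of these places in the second cell line. An INO80 peak of Huh7 overlapped 250 members, 73.1% (68.2 to 77.5), against 85.8% of broad peaks with YY1 and 16% of narrow peaks without YY1, where 44.2% of all HepG2 INO80 peaks were matched. The difference was -12.7 points (-17.8 to -7.99) from broad peaks with YY1 and 57.1 points (52.1 to 61.6) from narrow peaks without YY1. Members and narrow peaks differ in width by the rule, and the part that width plays in the second difference was not tested. Huh7 INO80 covered a median of 46.2% of the 250 members, against 46.1% of the 1874 broad peaks with YY1 that had it. It covered at least 90% of 36 members, and 70 members met a Huh7 peak of 2000 bp or more. At LHX4 a single Huh7 peak of 7128 bp covered 98.2% of the domain, at PDGFA 1 of 6856 bp covered 95.7%, and at MN1 1 of 5244 bp covered 84.8%. EN1, the widest member, had no INO80 peak in Huh7, and neither had the stretch in PTPRN2, MYOD1, FEZF2, TWIST2 or FOXC2. UNCX had only 337 bp of INO80 in Huh7 and NKX2-2 had 1380 bp.

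Most members had no YY1 peak in the second line either, a list the rule did not use. That list is shorter, with 21554 peaks against 39293 in HepG2. Of the 250 members with INO80 in Huh7, 30.4% had YY1 there. YY1 in Huh7 overlapped 82 members, 24% (19.8 to 28.8), against 83.1% of broad peaks with YY1, 12% of narrow peaks without YY1 and 47.4% of all HepG2 INO80 peaks. The difference from broad peaks with YY1 was -59.1 points (-63.6 to -54). In Huh7, 174 members had INO80 without YY1, 76 had both, 6 had YY1 alone and 86 had neither. The 4 widest members with YY1 in Huh7 were NFATC1, with 1556 bp of YY1, PDGFA with 3779 bp, MN1 with 324 bp and ELFN1 with 2722 bp. At PDGFA, Huh7 cells thus had YY1 over much of a domain that held none in HepG2. MCRS1 in Huh7 overlapped 3.51% of members, against 44.1% of broad peaks with YY1 and 18.7% of all HepG2 INO80 peaks, and RUVBL2 in Huh7 2.63%, against 35.8% and 11.2%. Those lists are short, with 6020 and 3322 peaks.

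The nearest HepG2 YY1 peak lay a median of 18684 bp away (quartiles 5976 and 67336 bp), as a description of what the rule chose. It lay within 1 kb of 19 members and within 5 kb of 77. The closest were 25 bp away, at a stretch inside the annotated span of FOXF1, and 26 bp away, at the start of ZFYVE28 and CFAP99. The farthest was 806149 bp away, at KCNN2.

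Most members lay over gene starts. A start of a protein-coding gene lay within 1 kb of 268 members, 78.4% (73.7 to 82.4), against 84% of broad peaks with YY1, 27.3% of narrow peaks without YY1 and 53% of all HepG2 INO80 peaks, a difference of -5.62 points (-10.5 to -1.28) from broad peaks with YY1. The interval of this difference left out 0 under 10 of 12 other settings, but not under all. The difference was -0.208 points (-5.34 to 4.05) for members with no YY1 within 5 kb and -0.343 points (-4.56 to 3.16) for starts within 5 kb. The start lay inside the domain in 259 members. A further 46 members lay in a coding gene with no start within 1 kb, 8 were near the start of a long non-coding RNA only, and 20 were near none of these. Besides the member next to NKX2-2, the widest with no coding gene were 4426 bp beside ENSG00000267073, near ONECUT3, and 4168 bp inside PLUT, a long non-coding RNA gene. In 250 members the starts inside belonged to a single coding gene, and distances were taken from the most upstream of them. Where a gene has several starts inside, this choice lengthens the downstream part. The domain reached a median of 900 bp upstream and 1651 bp downstream of that start, against 894 and 1794 bp in 1482 broad peaks with YY1. The longer part was downstream in 79.6% of members (74.2 to 84.1) and 78.1% of broad peaks with YY1, a difference of 1.46 points (-4.33 to 6.49). LHX4 had 1605 bp upstream and 5653 bp downstream, and PAX6 had 357 and 3332 bp.

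The members were rich in CpG. Sequence was read in the same central 2000 bp for every class. At the median widths of narrow peaks without YY1 (251 bp) and of all HepG2 INO80 peaks (666 bp), most of that window was flanking sequence. Over the central 2000 bp, median GC content was 66.5% in 340 members and 62.2% in broad peaks with YY1, a difference of 4.22 points (3.26 to 5), and 51.3% in narrow peaks without YY1. The median count of CpG was 167 in members, against 143 in broad peaks with YY1 and 94 at all coding gene starts. The ratio of observed to expected CpG was 0.77 in members and 0.75 in broad peaks with YY1, and the interval of this difference, 0.0151 (-0.000681 to 0.0298), includes 0. Under 5 of 9 other settings the interval left out 0, with the members higher, as in the central 500 bp, where the difference was 0.0671 (0.0419 to 0.0971). The ratio was 0.38 in narrow peaks without YY1. With a ratio of at least 0.6 and GC of at least 50% taken as CpG island criteria, 301 of 340 members (88.5%, 84.7 to 91.5) met them, against 74.9% of broad peaks with YY1, 25.7% of narrow peaks without YY1 and 43.9% of all HepG2 INO80 peaks. The difference from broad peaks with YY1 was 13.7 points (9.44 to 17.2). The remaining 2 members are on chromosome Y over SHOX, in the end that X and Y share. The reference has no bases there, and both repeat SHOX members on X.

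The letters of the YY1 core, GCCATNTT on either strand, were rarer in members. At least 1 match lay in the central 2000 bp of 11.2% of members (8.25 to 15), against 30.5% of broad peaks with YY1, 25.8% of narrow peaks without YY1, 29.3% of all HepG2 INO80 peaks and 28.6% of equal windows at coding gene starts. The difference from broad peaks with YY1 was -19.3 points (-22.9 to -15.1), and it was -6.6 points (-8.54 to -3.87) in the central 500 bp. The share with a match was lower at higher GC content in both classes. Where GC was 65% to 70% the share was 7.83% in 115 members and 20.3% in 522 broad peaks with YY1, and under 60% GC it was 29.6% and 43.5%. The match is a string of letters, not a site in use. For most narrow peaks the window again held mainly sequence outside the peak. To show such matches, 2 of the widest members with a match outside exons are printed with 60 bp around it and the match in capitals. They lie at chr18:77156916-77156975 on the plus strand and chr20:18038865-18038924 on the minus strand of hg19.
NFATC1: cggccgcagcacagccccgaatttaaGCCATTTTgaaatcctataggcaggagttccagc
OVOL2: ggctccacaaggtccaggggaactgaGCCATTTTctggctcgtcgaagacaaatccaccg

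Of these, NFATC1 had YY1 peaks in Huh7, while OVOL2 had none. The pattern was not particular to the YY1 core: of the 11 other motifs, 8 were rarer in members with an interval that leaves out 0, and 0 were more frequent with such an interval. Those 8 include the shorter string CCATNTT, which the YY1 core contains and which is thus not separate from it. CCATNTT was in 40% of members, against 62% of broad peaks with YY1. The AP-1 string TGANTCA was in 17.6%, against 27%, with a difference of -9.4 points (-13.5 to -4.63), and the GATA string AGATAA in 26.8%, against 36.6%. The NRF1 core GCGCATGC, itself rich in CpG, was in 3.53%, against 8.83%, a difference of -5.3 points (-7.26 to -2.53), and the ETS string CCGGAAG in 22.4%, against 29.6%. The forkhead string TGTTTAC was in 10%, against 15.5% (difference -5.51 points, -8.69 to -1.59), the HNF4 string CAAAGTCCA in 1.18%, against 3.25%, and the CCAAT box in 75.3%, against 80.3%. The SP1 string GGGCGG was in 93.8% and 91.8%, with an interval of the difference from -1.2 to 4.5 points. Shares at coding gene starts were 71% for CCATNTT, 32.8% for TGANTCA, 51.1% for AGATAA, 8.46% for GCGCATGC, 27.8% for CCGGAAG, 18.1% for TGTTTAC, 2.21% for CAAAGTCCA, 87.4% for CCAAT and 80.5% for GGGCGG.

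Genes for developmental transcription factors were more frequent under these domains than under the INO80 peaks they are set against. The gene lists were chosen with earlier results of these data known, and the intervals do not cover that choice. A listed transcription factor gene had its start within 1 kb of 54 members, 15.8% (12.3 to 20), against 3.62% of broad peaks with YY1 and 1.84% of narrow peaks without YY1, differences of 12.2 points (8.59 to 16.5) and 13.9 points (10.4 to 18.2). Of 389 such genes in 6 lists, 52 (13.4%, 10.3 to 17.1) had a member at their start, where the share over all 19798 coding genes was 1.38%. Broad peaks with YY1 lay at 77 of the 389 (19.8%), where their share over all coding genes was 10.6%, and an INO80 peak of any width at 261 (67.1%), against 63.7% of all coding genes.

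Of the listed homeobox and PAX genes outside the HOX clusters, which pattern embryonic tissues, 21 of 131 had a member. The lists do not hold every gene of a class: DMBX1 (2835 bp) and SHOX also had members at their starts and were not counted. After EN1, NKX2-2 and LHX4 the next were UNCX, LHX1 (4262 bp), PAX1 (4008 bp), GSC (3992 bp) and PAX6 (3689 bp), the eye and pancreas regulator. Of basic helix-loop-helix genes, which include the regulators of nerve and muscle fate, 14 of 68 had one, led by HELT (4566 bp), TWIST2 (3626 bp) and MYOD1 (3589 bp), the muscle regulator. Developmental zinc finger genes had 9 of 65, led by OVOL2 (4116 bp), INSM1 (3751 bp) and FEZF2 (3367 bp). SOX, T-box and GATA genes had 4 of 42: SOX8, SOX21 (3087 bp), TBR1 (2919 bp) and SOX5 (2466 bp). HOX genes had 2 of 39, HOXA13 (2849 bp) and HOXB7 (2052 bp), and forkhead genes 2 of 44, FOXF1 (4726 bp) and FOXC2 (3956 bp), which fall in the same cluster on chromosome 16 with a further member between them. The forkhead share, 4.55% (1.26 to 15.1), has an interval that includes the 1.38% over all coding genes. Broad peaks with YY1 lay at 23 of the 131 homeobox and PAX, 21 of the zinc finger, 12 of the SOX, T-box and GATA and 10 of the forkhead genes. They lay at 11 of the basic helix-loop-helix and 0 of the HOX genes, where their share over all coding genes was 10.6%.

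Signalling and neuronal genes had members too, where the share over all coding genes was 1.38% for members and 10.6% for broad peaks with YY1. Wnt pathway genes had 6 of 57, among them the ligands WNT3A (3331 bp) and WNT5A (2579 bp) and the Wnt enhancer RSPO3 (3268 bp). FGF and PDGF genes had 4 of 46, led by PDGFA, FGF3 (3532 bp) and FGF4 (2226 bp). Hedgehog and Notch genes had 2 of 30, the Notch ligand DLL1 (4617 bp) and the receptor NOTCH1 (3400 bp). TGF-beta and BMP genes had 2 of 56, BMP6 (2742 bp) and CHRDL2 (2121 bp). Axon guidance genes had 3 of 73, FLRT1 (2659 bp), FLRT2 (2655 bp) and NTN1 (2143 bp), and neuronal channel and receptor genes 5 of 111, led by the glutamate receptor GRM4 (3034 bp), the potassium channel KCND3 (2779 bp) and the GABA transporter SLC32A1 (2611 bp). With so few genes per list, shares of 3.57% to 10.5% have wide intervals. The interval of the lowest, 0.985% to 12.1% for TGF-beta and BMP genes, includes 1.38%. Broad peaks with YY1 lay at more genes of each of these lists. They lay at 14 Wnt, 14 FGF and PDGF and 9 hedgehog and Notch genes. For TGF-beta and BMP genes the count was 19, for axon guidance genes 15 and for neuronal genes 8.

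Genes of the hepatocyte and of the general cell machinery had members at shares near that of all coding genes, 1.38%, so their low counts are not a result about the members. Broad peaks with YY1 lie at 10.6% of all coding genes. Of 67 hepatocyte genes 1 had a member, FGL1 (2663 bp), a share of 1.49% (0.264 to 7.98), while 19 had a broad peak with YY1. Of 78 genes for cytosolic ribosomal proteins 0 had a member at a start (0 to 4.69%), while 36 had a broad peak with YY1. Of 40 genes for Polycomb complex subunits 0 had a member (0 to 8.76%) and 11 had a broad peak with YY1.

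**Figure D3:**
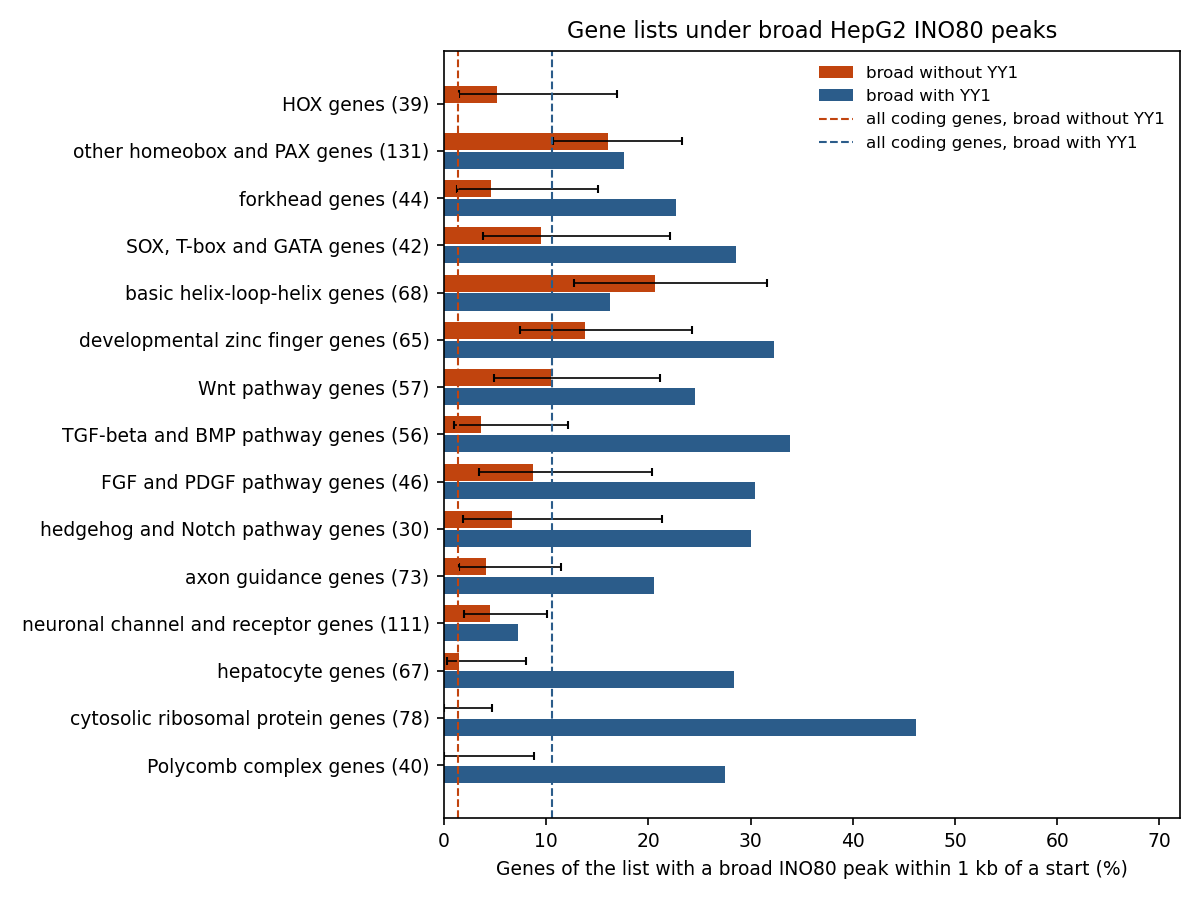
Share of the genes of each list (y axis, with the number of genes) that have a broad INO80 peak within 1 kb of a start (x axis, percent), for members (upper bar, red, with 95% Wilson intervals) and broad peaks with YY1 (lower bar, blue); dashed lines give the shares over all coding genes, 1.38% and 10.6%. Members reach 20.6% of basic helix-loop-helix genes and 0% of cytosolic ribosomal protein genes.

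Wider members were more often at such genes. The share of members with a listed transcription factor start was 9.21% (5.57 to 14.9) from 2000 bp, 12.5% (7.45 to 20.2) from 2500 bp, 28.3% (18.5 to 40.8) from 3000 bp and 38.5% (22.4 to 57.5) from 4000 bp, where each class ends at the next one's start. In broad peaks with YY1 the same shares were 1.93%, 2.52%, 4.74% and 8.36%. The share was thus higher at greater width in both classes. Neither MCRS1 in HepG2, at 16.3% to 23.1% of members, nor INO80 in Huh7, at 71.7% to 84.6%, differed between width classes beyond their intervals. The 54 members at listed transcription factor genes had MCRS1 in 13% and the other 288 in 22.2%, with an interval of the difference from -17.6 to 3.02 points, and INO80 in Huh7 in 72.2% and 73.3%.

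**Figure D4:**
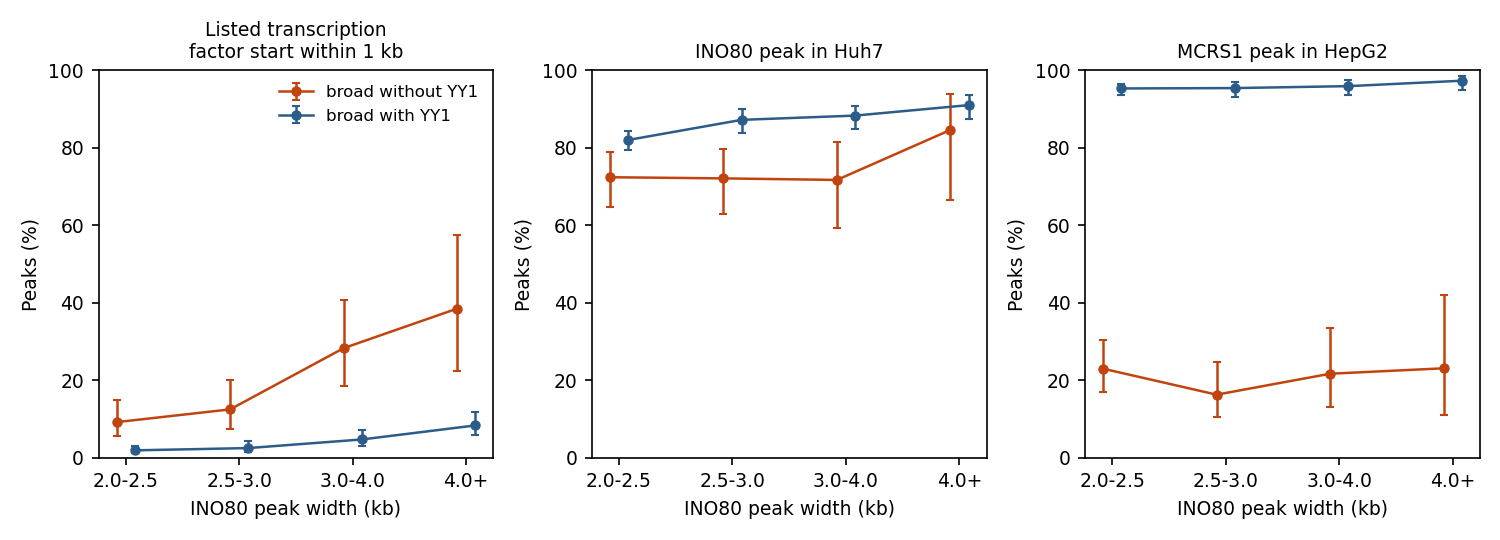
Share of peaks (y axis, percent) with a listed transcription factor start within 1 kb, with INO80 in Huh7 and with MCRS1 in HepG2, by width of the HepG2 INO80 peak in kb (x axis), for members (red, left point of each pair) and broad peaks with YY1 (blue); whiskers are 95% Wilson intervals. The share with a transcription factor start is 9.21% in the narrowest and 38.5% in the widest class of members.

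Some members lay close to each other. With gaps of up to 50 kb, 46 members formed 21 clusters of at most 3. The triples were FOXF1 with FOXC2, ONECUT3, HMX1 and APOB. Pairs included PAX6, NPAS3, LHX5, FGF3 with FGF4, NKX2-2 with its neighbour, FN1 and RBM39. HepG2 has gained copies of chromosomes 2, 14, 16, 17 and 20. Members there were 32.2% of all (27.4 to 37.3), against 40.6% of broad peaks with YY1 and 34.8% of narrow peaks without YY1.

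A minority of members was of another kind. The 39 members with sequence that missed the CpG criteria had a coding start within 1 kb in 35.9%, against 84.1% of the 301 that met them, and 20 of the 39 lay inside a coding gene away from its starts. The criteria were chosen after the data were seen. MCRS1 overlapped 51.3% of the 39 (36.2 to 66.1) and 16.9% of the 301 (13.1 to 21.6), and RUVBL2 overlapped 43.6% (29.3 to 59) and 2.99% (1.58 to 5.58). RUVBL1 overlapped 11 of the 39 (28.2%, 16.5 to 43.8) and 0 of the 301 (0 to 1.26%). This direction was not particular to the members. In broad peaks with YY1, RUVBL1 was in 75.2% outside the criteria and 43.8% inside them. RUVBL2 was in 92.7% and 81.4% of those peaks, and MCRS1 in 99.1% and 94.6%. The median distance to a HepG2 YY1 peak was 4335 bp in the 39 and 22963 bp in the 301. Of the 18 with a ratio under 0.35, 15 held MCRS1, RUVBL1 or RUVBL2.

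The 11 members with RUVBL1 had ratios of 0.18 to 0.49 and none met the CpG criteria (0 to 25.9%). Among the 1130 broad peaks with YY1 that had RUVBL1, 63.5% (60.6 to 66.2) met them, with a median ratio of 0.72. These 11 lay in the bodies of APOB (3 members), RBM39 (2 members), XBP1, RPL13A, RPS9, EEF2 and BRD2 and at the start of ENSG00000267168, which overlaps METTL23. APOB encodes the structural apolipoprotein of low-density lipoprotein particles and XBP1 a regulator of the unfolded protein response. RPL13A and RPS9 encode ribosomal proteins, EEF2 an elongation factor of translation, BRD2 a bromodomain protein and RBM39 a splicing factor. RUVBL1 covered a median of 53.7% of these 11 (quartiles 36.8 and 81.4), against 20.2% (9.91 and 40.4) of the broad peaks with YY1 that had it. Most of those peaks met the CpG criteria and none of these 11 did, and the part of that in the coverage was not tested. In RPS9 RUVBL1 covered 2041 bp of 2078 bp, beside 2078 bp each of MCRS1, RUVBL2 and Huh7 YY1, with the nearest HepG2 YY1 peak 76 bp away. In APOB the member of 2346 bp was covered by MCRS1 over its whole length, by RUVBL1 over 2256 bp and by RUVBL2 over 2198 bp, and the nearest YY1 peak was 4533 bp away. The 3 members in APOB had no INO80 peak in Huh7.

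KLB, the co-receptor for FGF19 in liver, had MCRS1 over 97% of a 3321 bp member and no RUVBL1. TRIB3, a stress-induced pseudokinase gene, had MCRS1 over 86.5% and RUVBL2 over 1605 bp of 2391 bp. FGL1, a protein secreted by hepatocytes, had MCRS1 over 72.7% of its member, where the CpG ratio was 0.28 and the nearest YY1 peak 540 bp away. Such stretches lay near other INO80 peaks, as the map of domains shows for APOB, KLB and XBP1. Another INO80 peak lay within 10 kb of 29 of the 39 members outside the CpG criteria (74.4%, 58.9 to 85.4) and of 115 of the 301 inside them (38.2%, 32.9 to 43.8). A YY1 peak of HepG2 lay within 10 kb of 71.8% of the 39 and 31.6% of the 301. The part of these neighbours in the factors they hold was not tested. Within each CpG class the members still had fewer factors than broad peaks with YY1: MCRS1 differed by -77.7 points (-81.6 to -72.9) inside the CpG criteria and by -47.8 points (-62.9 to -32.9) outside them, and RUVBL2 by -78.4 points (-80.7 to -75.1) and -49.1 points (-63.5 to -33.5). RUVBL1 differed by -43.8 points (-46.2 to -41.1) inside them and -47 points (-59.2 to -31) outside.

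**Figure D5:**
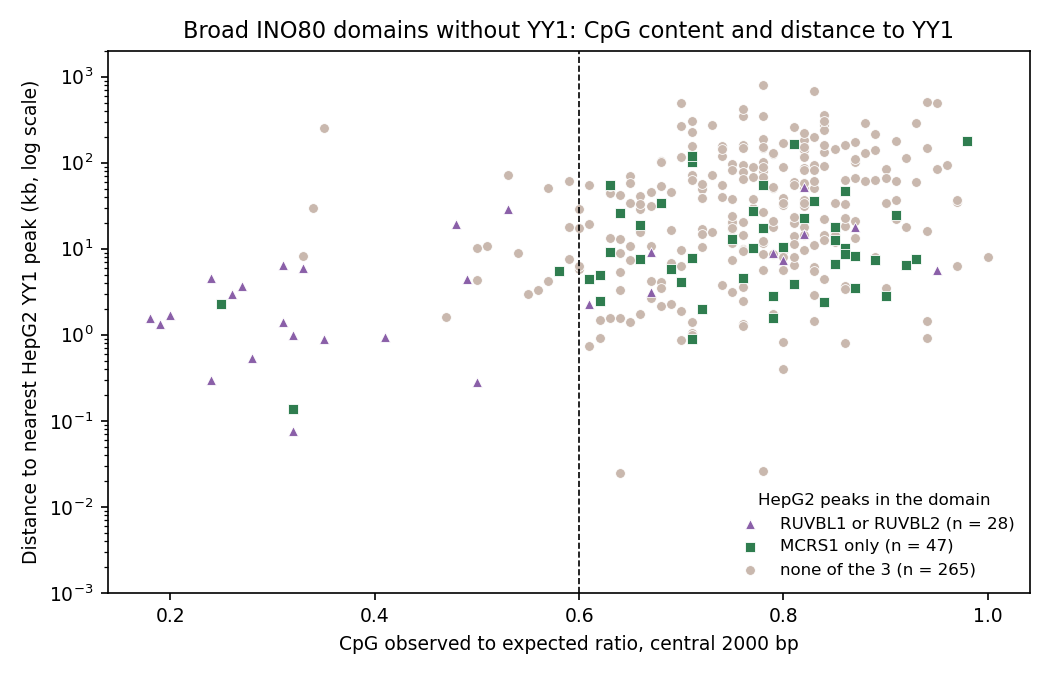
Ratio of observed to expected CpG in the central 2000 bp (x axis) and distance to the nearest HepG2 YY1 peak in kb (y axis, log scale) for the 340 members with sequence, by the HepG2 factors they overlap: RUVBL1 or RUVBL2 (purple triangles), MCRS1 only (green squares) or none (pale circles). The dashed line marks a ratio of 0.6, and 22 of the 39 members outside the CpG criteria hold a factor.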

How the data were processed

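The members, gene lists and motifs were chosen with earlier results of these data known. The authors deposited 1 list of filtered peak positions per factor and line, with no height or score. Per the submitters' processing notes Bowtie2, SAMtools, MACS2, bedtools and deepTools were used with the builds hg19 and dm3. Calling on single or on merged libraries is a point not given in the sources used here. Nothing says that libraries came from separate cultures. Depth is unknown, so the length of a list may follow depth as well as occupancy. A table of fly tags and the input and acetylation libraries were not used here.

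Python 3.11.15, numpy 2.4.6, pandas 2.3.3, scipy 1.17.1 and pysam 0.24.0 were used. Overlap meant at least 1 bp. Gene starts and exons came from GENCODE release 44 lifted to GRCh37, the sequence of hg19. A gene was assigned a peak within 1 kb of a protein-coding transcript start, over 19798 coding genes, and all 947 entries of the 15 gene lists matched. CpG and 12 motifs were read in the central 2000 bp. The 95% intervals are Wilson's for shares, Newcombe's for differences and order statistics for medians. They treat peaks as independent. The scripts were tested on simulated data. One of the sequences planned for printing is not reported here.

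The text names the 12 widest members, the 3 widest of each gene list, the 4 widest with MCRS1, with RUVBL1 or RUVBL2 and with Huh7 YY1, the 3 widest without a coding gene, the 3 on each side of the width limit and the 3 widest peaks with YY1. The CpG criteria, the split of members by them, and members outside that rule were chosen after their values were seen. Alternatives changed the width, the gap to YY1, the overlap, the chromosomes, the width mix, the start distance and the sequence window.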

Additional observations from a re-analysis of the deposited data

How the results depend on the processing

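No paired analysis was possible because each factor has 1 peak list per line, and for the same reason no replicate could be left out. The differences, members minus broad peaks with YY1, are in percentage points, and none changed sign under the alternatives run. The MCRS1 difference was -80.6 with no YY1 peak within 5 kb and -80.3 with at least 10% of the domain covered. The RUVBL2 difference was -80.1 with no YY1 within 5 kb, -62.9 for the central 500 bp and -55.8 with only the 3322 widest peaks of the list. The RUVBL1 difference was -42.5 from 1500 bp, -61.9 from 3000 bp, -51.3 with no YY1 within 5 kb, -35.7 with at least 10% covered, -25.9 for the central 500 bp and -37.9 with the widest peaks. For YY1 in Huh7 the widest peaks gave -43.7. For INO80 in Huh7 all alternatives lay between -13.9 and -8.05, inside the interval as reported.

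The difference in coding starts was -14 from 3000 bp, but -0.208 with no YY1 within 5 kb and -0.343 for starts within 5 kb, both with intervals that include 0. The YY1 core difference was -15 from 3000 bp, -24.6 without chromosomes 2, 14, 16, 17 and 20, -25.5 over the whole domain and -6.6 in the central 500 bp. The CpG ratio difference was 0.0671 in the central 500 bp, with an interval of 0.0419 to 0.0971. Its interval also left out 0 on autosomes only, with no YY1 within 1 kb, with no YY1 within 5 kb (0.0176 to 0.046) and without those chromosomes. The count of listed transcription factor genes was 81 from 1500 bp, 26 from 3000 bp and 33 without those chromosomes, against 52 as reported. The causes were not tested. Leaving out chromosome Y was an alternative chosen after seeing the data and gave values inside the reported intervals. Peak lists without heights limit what width can show, and list length may follow depth.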

Other observations

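The 71 members with MCRS1 in HepG2 also differed from the 271 without it in Huh7. YY1 of Huh7 overlapped 36.6% of the 71 (26.4 to 48.2) and 20.7% of the 271 (16.3 to 25.9), a difference of 16 points (4.46 to 28.4). RUVBL2 of HepG2 overlapped 31% (21.4 to 42.5) and 1.48% (0.575 to 3.73). INO80 of Huh7 overlapped 77.5% and 72%, and the interval of that difference, -6.56 to 15.4 points, includes 0. The median distance to the nearest HepG2 YY1 peak was 6500 bp in the 71 and 31088 bp in the 271. The YY1 core was in 19.7% and 8.92% of them, a difference of 10.8 points (2.21 to 21.9). The CpG criteria were met by 71.8% of the 71 and by 92.9% of the 269 others with sequence, a difference of -21.1 points (-32.7 to -11.3). The split by MCRS1 is thus mixed with the split by CpG criteria above, and their separate parts were not tested. These splits were made after the values were seen.

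The 250 members with INO80 in Huh7 had a coding start within 1 kb in 82%, and the 92 without it in 68.5%, a difference of 13.5 points (3.46 to 24.5). YY1 of Huh7 overlapped 30.4% of the 250 and 6.52% of the 92. Listed transcription factor starts were within 1 kb of 15.6% of the 250 and 16.3% of the 92, with an interval of the difference from -10.4 to 7.24 points.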
